A study of Mus musculus with 2 samples.

Results

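The genes described here encode the proteasome, measured in long-term hematopoietic stem cells (LT-HSCs) of aged mice with and without deletion of p38α. They were chosen by name: every probe whose gene symbol begins with Psma, Psmb, Psmc or Psmd followed by a digit was taken, except those for Psmb8, Psmb9 and Psmb10. This gave 37 genes read by 45 probes, out of 55662 probes on the array, and 36 of the 37 were among the 17206 named genes that stood clear of background on one array or both. Of these 37, 14 encode the core particle found in all cells, 17 encode the regulatory particle that caps it, and the other 6 (Psma8, Psmb11, Psmd5, Psmd9, Psmd10 and Psmc3ip) were kept apart from both groups.

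LT-HSCs had been sorted as CD150+CD48-Flt3-CD34- LSK cells from the bone marrow of C57BL/6J mice at 2 years of age (the methods of the study add CD41- to this gate), and each genotype was hybridised to 1 single-colour array. The p38KO mice carried CAG-CreERT2 together with floxed p38α alleles and received tamoxifen at about 1 year of age, whereas the controls, labelled wild-type, carried the floxed alleles without Cre and received tamoxifen as well. Because the CAG promoter is active in most tissues, the deletion was not limited to HSCs, and how many mice contributed to each array is not given in the sources used here. With 1 array per genotype no test between genotypes was possible, so differences are given as values, on the log2 scale and as p38KO minus wild-type throughout.

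The proteasome is the protease that degrades proteins marked with ubiquitin. Its core particle is a barrel of stacked rings, with outer α rings that form the gate and inner β rings that hold the catalytic sites, and its regulatory particle has a base, whose ATPases unfold the substrate and thread it into the barrel, and a lid that removes the ubiquitin chain. HSCs make protein at a low rate, and their maintenance is known to be sensitive to disturbed protein turnover.

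Mapk14, which encodes p38α, was checked first. Its brighter probe gave a level of 2.34 on the wild-type array and 2.31 on the p38KO array, and its other probe gave 2.08 and 2.03. A level here is the log2 signal minus the 75th percentile of its array. The targeted transcript was therefore not lower by more than the spot error on the array labelled p38KO. Whether either probe lies within the deleted part of the gene is not given, so the label could not be checked by this gene. The study itself reported the deletion by genomic PCR in 2-year-old mice treated this way, in peripheral blood cells and not in LT-HSCs. Of 18 HSC identity genes 16 were lower on the p38KO array, against 52.3% of all genes. Their median was -0.53, and their summed signal was 228 on the wild-type array and 181 on the p38KO array, in units of the 75th percentile. Of the markers that the gate selects for, Kit differed by -0.09, Ly6a (Sca-1) by -0.78 and Slamf1 (CD150) by -0.82. Of the 4 genes whose products the gate excludes, Cd48 was higher by 1.37 and Flt3 by 0.36, while Cd34 and Itga2b (CD41) differed by -0.15 and -0.37. Of 14 neutrophil and monocyte markers 10 were higher on the p38KO array (median 1.00, summed signal 220 and 303), against 47.7% of all genes. Most of that sum came from Itgam, which differed by 0.42, and without it the sums were 38.5 and 60.3. All 10 measured B and plasma cell markers were higher (median 0.98, summed signal 7.60 and 23.4), but Jchain carried most of the sum, which without it was 6.46 and 8.19, and Ebf1 and Ms4a1 were well above background on the p38KO array alone. Of 8 measured T and NK cell markers 6 were higher (median 0.59), but they ran from -4.43 for Zap70 to 3.54 for Icos. Beside this count and that of the B and plasma cell markers, 47.7% of all genes were higher. In the remaining lists 5 of 8 erythroid, 4 of 8 megakaryocyte and 2 of 5 endothelial and stromal markers were higher, near that share. The part of these marker differences in the proteasome values was not tested. In bulk RNA, fewer cells of a type and less RNA per cell cannot be told apart.

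The sequences by which the array read 6 of the 7 subunits that differed by at least 1.5-fold are given first, since every value rests on 60 bases of transcript. The probe of Psmd13, which had the largest decrease, is not shown. Each is written 5′ to 3′, and the stop codon that closes the Psmc5 reading frame is in capitals.
Psmc5: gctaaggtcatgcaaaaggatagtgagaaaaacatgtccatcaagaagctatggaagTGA
Psmb1: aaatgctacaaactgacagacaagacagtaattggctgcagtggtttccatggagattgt
Psmb2: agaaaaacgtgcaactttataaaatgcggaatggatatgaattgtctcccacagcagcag
Psmb7: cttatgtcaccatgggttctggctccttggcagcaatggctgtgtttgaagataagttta
Psmd8: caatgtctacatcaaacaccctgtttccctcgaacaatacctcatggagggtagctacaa
Psmd14: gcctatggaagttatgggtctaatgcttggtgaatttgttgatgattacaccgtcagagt
The Psmb1, Psmb2, Psmb7, Psmd8 and Psmc5 probes each span more than 60 bases of the mouse genome (build mm9), so they cross a splice junction. Psmb1 was read at chr17:15630098-15631393 on the minus strand and Psmd14 at chr2:61599058-61599117 on the plus strand. None of these 6 probes shared a run longer than 17 bases with a probe of another gene.

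Most constitutive subunits were modestly lower on the p38KO array. Of the 31 core and regulatory subunits 27 were lower, with a median of -0.25, while 52.3% of all 17206 genes were lower, with a median of -0.03. The other 4 were higher, as were 47.7% of all genes. Among the 7553 genes with a mean level above 0, a range closer to that of the subunits, 58.1% were lower and the median was -0.08. The differences were small: 6 subunits were at least 1.5-fold lower, where 16.1% of all genes and 9.14% of the genes with a mean level above 0 were, and the share among the subunits was near that of all genes. None of the 31 was 2-fold lower, against 7.64% of all genes and 113 of the 7553 genes with a mean level above 0. Just inside the 1.5-fold line, which lies at 0.58 on this scale, was Psmd8 with -0.59, and just outside it were Psmd1 with -0.57 and Psma6 with -0.57.

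Repeated spots of the same probe gave a measure of error within an array. The SD of a difference between single spots was 0.13, so that 2 SD is 0.26. By this measure 15 of the 31 subunits were lower by more than the spot error, 1 was higher and 15 lay within it, while 32.9% of all genes were lower and 29.8% were higher beyond the same limit. The scanner software gave a larger error, and at 2 times its median over the subunits' brightest probes, 0.41, 9 subunits were lower and 1 was higher. Beyond the same 0.41 were 23.6% and 21.5% of all genes, although dim probes have a larger software error than the subunits. Psma1, Psma4, Psma7, Psmb3, Psmb6 and Psmd4 lay between these limits. "Spot error" below means the limit of 0.26. Either error covers the printing and reading of spots and not the variation between mice or sorts.

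**Figure D1:**
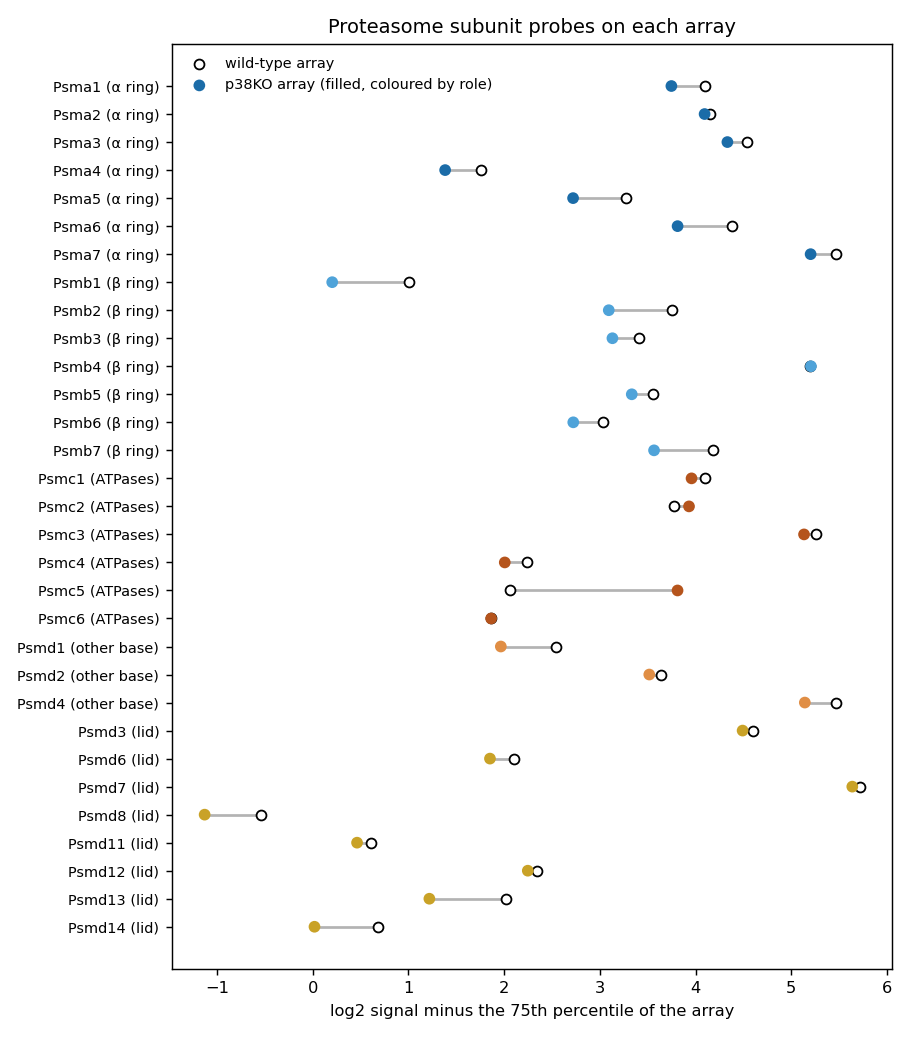
Level of each subunit's brightest probe on the wild-type array (open circles) and the p38KO array (filled circles), on the log2 scale described for Mapk14, in order of role. In 27 of the 31 rows the filled circle lies to the left of the open one, and the longest line to the right belongs to Psmc5; levels of different probes are not comparable with each other.

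In the core particle, 13 of 14 subunits were lower on the p38KO array, against 52.3% of all genes, and the median difference was -0.33. All 7 subunits of the α ring, the gate through which substrates enter, were lower, with a median of -0.35 and a range from -0.57 to -0.05. Psma6 was at 4.38 on the wild-type array and 3.81 on the p38KO array. Psma5 was at 3.27 and 2.72. At the other end of the ring, Psma2 had nearly equal levels of 4.15 and 4.09, within the spot error. Its difference was just above 0 with quantile normalization or loess. Psma7 was at 5.47 and 5.20, close to the limit of that error, Psma1 was at 4.10 and 3.75, and Psma3 differed by -0.21.

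Of the 7 β ring subunits 6 were lower, against 52.3% of all genes, with a median of -0.31. The lowest relative to wild-type was Psmb1, a non-catalytic subunit, which was at 1.00 on the wild-type array and 0.20 on the p38KO array, a 1.74-fold difference. Psmb2, also non-catalytic, was at 3.76 and 3.09, a 1.58-fold difference. Psmb4, whose tail helps to close the assembling barrel, was the one core subunit that was not lower, at 5.20 on both arrays. Psmb3, another structural subunit, differed by -0.28.

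The 3 catalytic subunits were all lower, though by different amounts. Psmb5, which carries the chymotrypsin-like activity, was at 3.55 on the wild-type array and 3.33 on the p38KO array, a difference within 2 SD of the spots. Psmb6, with the caspase-like activity, was at 3.03 and 2.72. Psmb7, with the trypsin-like activity, was at 4.18 and 3.57, a 1.53-fold difference and the largest of the 3. The median of these 3 was -0.31, and that of the 4 structural members of the β ring, which ranged from -0.80 to 0.01, was -0.47.

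The inducible subunits Psmb8, Psmb9 and Psmb10 replace these 3 in the immunoproteasome, which favours peptides for antigen presentation, and they give the closest comparison. Psmb8 was at 4.03 on the wild-type array and 3.49 on the p38KO array. Psmb9 was at 4.55 and 3.77, and Psmb10 was at 2.89 and 2.57. All 3 inducible subunits were thus lower beyond the spot error, as were 2 of the 3 constitutive ones. Set against its counterpart, the difference of Psmb8 was below that of Psmb5 (-0.31) and that of Psmb9 was below that of Psmb6 (-0.47). Psmb10 was less far below wild-type than Psmb7 (0.29). Each of these gaps carries the error of 2 differences, for which no limit was computed. The dimmer Psmb5 probe and the Psmb8 probe lie in matching parts of these related genes and are shown with the bases they share at the same place in capitals.
Psmb5: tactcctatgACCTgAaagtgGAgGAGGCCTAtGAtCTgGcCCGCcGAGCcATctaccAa
Psmb8: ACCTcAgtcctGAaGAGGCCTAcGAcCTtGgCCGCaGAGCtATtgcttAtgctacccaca
Over the 50 bases in which they overlap 31 were identical (62.0%), and the longest identical run was 8 bases. The dimmer Psmb5 probe gave -0.28, close to the -0.22 of the brighter one.

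**Figure D2:**
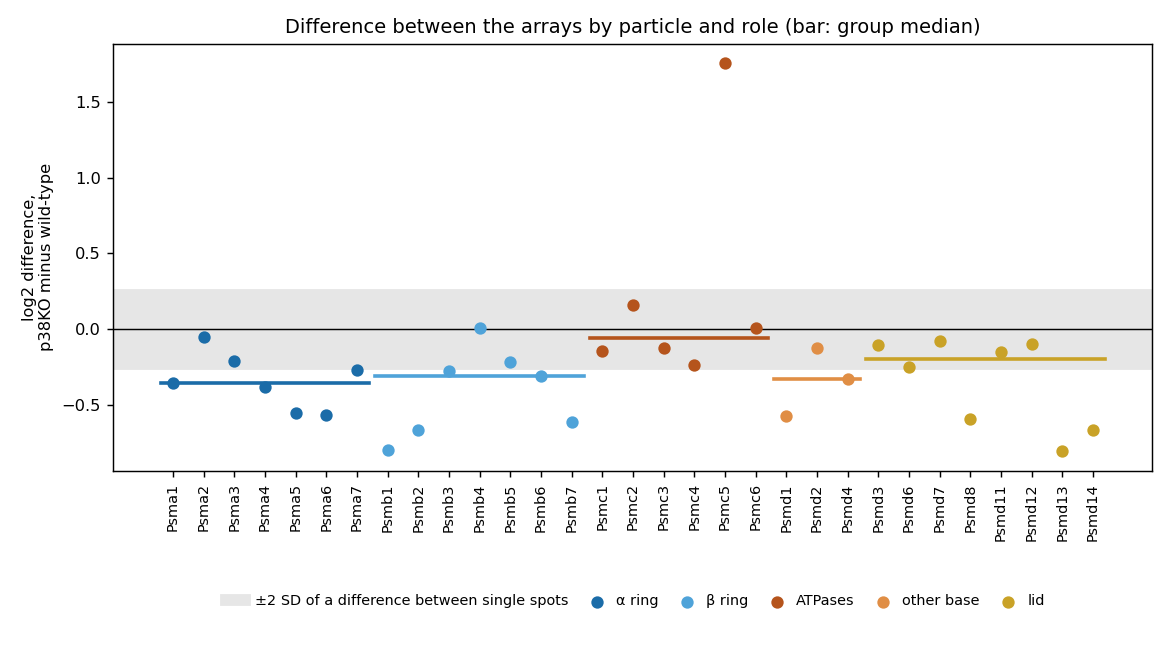
Difference of each subunit on the log2 scale (vertical axis, p38KO minus wild-type), grouped by role, with horizontal bars at group medians and a grey band at 2 SD of a difference between single spots (0.26). The α and β rings lie mostly below the band, 5 of 7 in each, whereas the ATPases lie within it except Psmc5 at 1.75.

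The regulatory particle was also mostly lower, with 14 of 17 subunits below 0, against 52.3% of all genes. It was lower by less: its median was -0.14, against -0.33 in the core. Beyond the spot error 5 of 17 regulatory subunits were lower, against 10 of 14 in the core and 32.9% of all genes. The regulatory count was thus near the share of all genes. The distance between these medians (-0.19) could not be tested with 1 array per genotype. The regulatory median shrank to -0.04 under quantile normalization or a loess fit between the arrays, and the distance between core and regulatory medians shrank to -0.09 when all probes of a gene were averaged.

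The ATPases of the base, which form the ring that unfolds substrates, were the group with the least shift. Only 3 of 6 were lower, and 5 of 6 lay within the spot error. Their median was -0.06, and it was 0.01 with either quantile normalization or loess. Psmc1 was at 4.10 on the wild-type array and 3.96 on the p38KO array, and its second probe gave a difference of -0.13 beside the -0.14 of the first. Psmc2 was at 3.77 and 3.93, and an overlapping second probe gave a difference of 0.15. Psmc3 differed by -0.12, Psmc4 by -0.23 and Psmc6 by 0.01. These values lie within the spot error for every ATPase except Psmc5.

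Psmc5 stood apart from every other subunit. Its level was 2.06 on the wild-type array and 3.81 on the p38KO array, a difference of 1.75 or 3.37-fold. Of all genes 5.95% were at least 2-fold higher, as were 71 of the 7553 genes with a mean level above 0. The processed signals behind the Psmc5 levels were 596 and 1615, with local backgrounds of 18 and 17, and neither spot was marked as uneven or as an outlier. Among the 15661 genes well above background on both arrays it ranked 71 in order of increase. The ATPase it encodes shares a ring of fixed composition with the other 5, for which the median was -0.12. Only 1 probe reads Psmc5, at chr11:106124192-106124376 (mm9, plus strand), where it ends at the stop codon, so no second probe could be set beside it. The neighbouring genes were not higher: Ftsj3, for ribosomal RNA processing, differed by -0.34, and Smarcd2, a chromatin remodelling subunit, by -0.52. Under the alternative scalings and background corrections the difference ranged from 1.63 to 1.84.

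The other base subunits were all lower. Psmd4, a receptor that holds the ubiquitin chain, was at 5.47 on the wild-type array and 5.14 on the p38KO array. Psmd1, a large scaffold subunit, was at 2.54 and 1.96. Psmd2, the scaffold on which shuttling receptors dock, was at 3.64 and 3.52. Psmd1 lay outside the spot error and Psmd2 within it, but whether these scaffolds differed from each other was not tested.

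All 8 lid subunits were lower, against 52.3% of all genes, with a median of -0.20, but 3 of them were much lower than the rest. Psmd13 was at 2.02 on the wild-type array and 1.22 on the p38KO array, a 1.75-fold difference and the largest of the regulatory particle in the downward direction. Psmd14, the deubiquitinase that cuts the chain from the substrate, was at 0.68 and 0.02. Psmd8 was at -0.54 and -1.13, a 1.51-fold difference. The remaining 5 were within the spot error, from -0.25 for Psmd6 to -0.08 for Psmd7, the partner with which Psmd14 forms the deubiquitinating pair. Psmd11, which clamps the lid to the core, differed by -0.15, and Psmd12 and Psmd3 by -0.10 and -0.11, although the dimmer Psmd12 probe gave -0.38. Psmd3 and Psmd7 were just above 0 with quantile normalization. With normexp background correction Psmd14 (-0.51) and Psmd8 (-0.31) were no longer 1.5-fold lower, while Psma5 and Psma6 passed that line and the count stayed at 6.

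**Figure D3:**
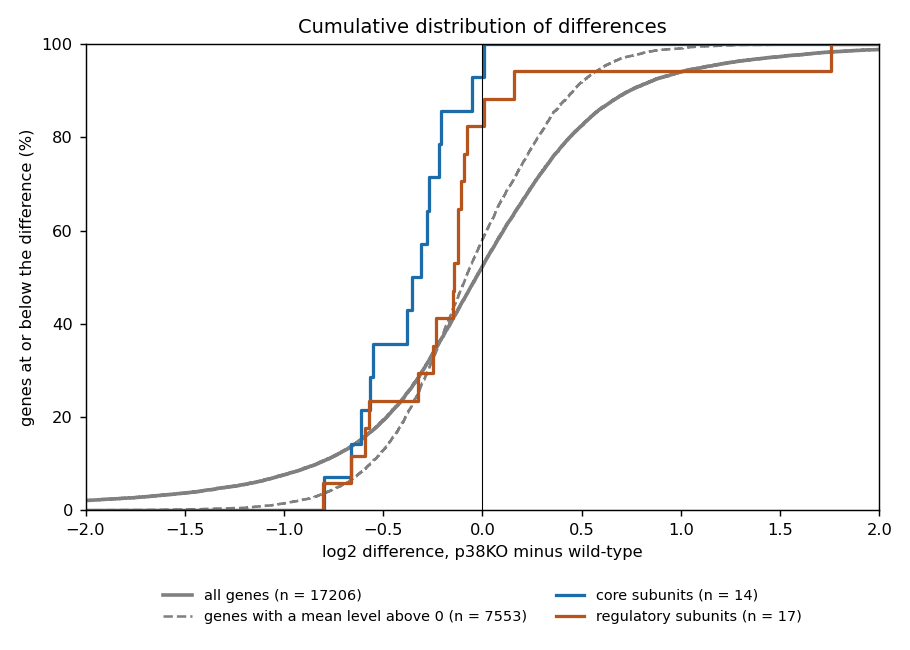
Cumulative share of genes (vertical axis, percent) at or below each log2 difference (horizontal axis, drawn from -2 to 2) for core subunits, regulatory subunits, all 17206 genes and the 7553 genes with a mean level above 0. The core curve lies to the left of both backgrounds over most of its length, whereas the regulatory curve rises steeply between -0.25 and 0 and has a single far point, Psmc5.

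The other 6 genes taken by name were reported apart. Psma8, the α subunit of the testis proteasome, was dim, at -1.41 on the wild-type array and -2.37 on the p38KO array, and its difference of -0.97 was -0.25 with normexp background correction. Psmb11, the catalytic subunit of the thymus proteasome, was marked by neither array as well above background. The 3 chaperones that guide assembly of the ATPase ring were lower, with -0.14 for Psmd5, -0.74 for Psmd9 and -0.91 for Psmd10. With normexp background correction the Psmd9 value was -0.38 and that of Psmd10 -0.61. The Psmd10 value depended on the probe. Its brighter probe was at 0.21 and -0.70, whereas the dimmer one was at -1.01 on the wild-type array and -0.50 on the p38KO array, a difference of 0.51. Both Psmd9 probes were lower, by -0.74 and -0.37. Psmc3ip, a meiotic recombination factor that shares the prefix but is no subunit, was at -0.25 and -0.72, and its difference of -0.47 was -0.24 with normexp.

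In all, 8 of the 37 genes had more than 1 probe, and in 6 of them the probes lay on the same side of 0. The exceptions were Psmd10 and Psma4, for which one probe was at 1.76 on the wild-type array and 1.38 on the p38KO array and the other at 0.77 and 0.82. The remaining 29 genes, among them Psmc5, Psmb1 and Psmd13, rest on 1 probe. In 4 of the 8 genes the differences of the probes lay more than 0.26 apart: 1.42 for Psmd10, 0.43 for Psma4, 0.37 for Psmd9 and 0.29 for Psmd12. That limit is for 1 difference between single spots, whereas such a gap carries the error of 2 differences. A limit for gaps was not computed.

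Genes that work with the proteasome were lower to a like extent: 31 of the 35 measured members of the pathway lists lay below 0, with a median of -0.32. Of all genes 52.3% were lower, as were 58.1% of the genes with a mean level above 0. Of the activators, Psme1, a subunit of the interferon-inducible cap, was at 6.42 on the wild-type array and 5.99 on the p38KO array. Psme3, the nuclear activator, was at 8.05 and 8.49, the largest increase among the pathway genes (0.25 with quantile normalization). Psmf1, an inhibitor of the core particle, was dim and differed by -1.13, a value that was -0.21 with normexp background correction. Psme4, the activator linked to histone degradation, differed by -0.36.

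All 5 assembly factors of the core particle were lower, against 52.3% of all genes, with a median of -0.34. Pomp, the chaperone degraded once the barrel is complete, was at 5.19 on the wild-type array and 4.80 on the p38KO array, and the smallest difference of this list was -0.10, for Psmg2. Factors bound to the finished particle were near 0, with a median of -0.07 over 6 genes. The deubiquitinases Usp14 and Uchl5 differed by 0.03 and -0.07, and the ligase Ube3c, which extends chains on stalled substrates, was at 1.34 and 0.82. Of the genes that act on the supply of proteasomes, Nfe2l1, the transcription factor that raises subunit genes when proteasome activity is low, was at -1.45 and -2.31, and its difference of -0.86 was -0.23 with normexp background correction. Akirin2, which brings proteasomes into the nucleus, was at 4.40 and 3.96. Ddi2, the protease that activates Nfe2l1, differed by -0.01.

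Upstream of the proteasome, 4 of 5 ubiquitin and ubiquitin-activating genes were lower, against 52.3% of all genes. Ubb, which encodes ubiquitin as a tandem chain, was at 6.95 on the wild-type array and 6.37 on the p38KO array, whereas Uba1, the activating enzyme, differed by 0.02. Of the 8 genes that deliver substrates 7 were lower, beside the same share of all genes. The shuttle factor Ubqln4 was at 0.38 and -0.92, the largest decrease among the pathway genes, and its difference of -1.30 was -0.86 with normexp background correction. Nploc4, a cofactor of the segregase Vcp, was at 0.49 and 0.58.

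Other large complexes of the cell were lower too, where 52.3% of all genes and 58.1% of the genes with a mean level above 0 were. All 8 subunits of the cytosolic chaperonin, a protein-folding complex, were lower, with a median of -0.46, and 70 of 74 cytoplasmic ribosomal protein genes were lower, with a median of -0.28. The 14 core subunits, with 13 lower and a median of -0.33, lay between these, and the 17 regulatory subunits lay above both.

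**Figure D4:**
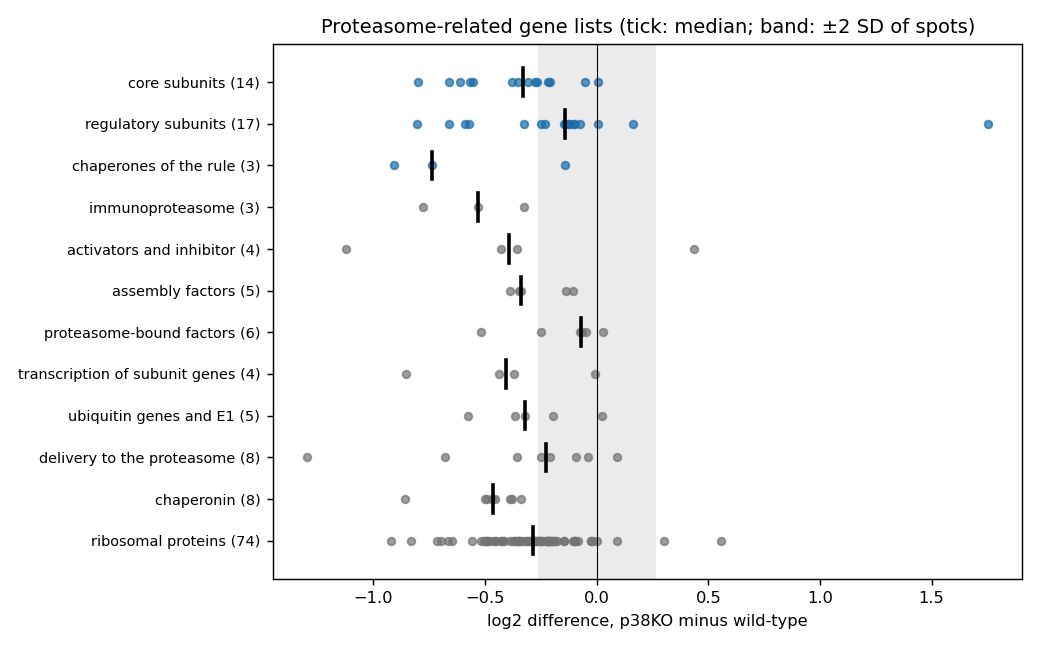
Log2 difference of each gene (horizontal axis, p38KO minus wild-type) in the subunit groups (blue), the pathway lists and the 2 comparison complexes (grey), with black ticks at medians, the number of genes in brackets and a grey band at 2 SD of spots. Medians of -0.46 for the chaperonin and -0.28 for the ribosomal proteins stand on either side of that of the core subunits (-0.33).

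Promoter sequence was available for 25 of the 31 subunits, 11 core and 14 regulatory, in a RefSeq table of build GRCm38.p6, and it was searched on both strands over the 250 bases before the start. Examples are shown with the letters TGACNNNGC, CCGGAAG and CCAAT in capitals where they occur: Psmb5, a core subunit with TGACNNNGC, Psmd4, a regulatory subunit with the other two, and Psmc5, which holds none of these 3 motifs.
Psmb5: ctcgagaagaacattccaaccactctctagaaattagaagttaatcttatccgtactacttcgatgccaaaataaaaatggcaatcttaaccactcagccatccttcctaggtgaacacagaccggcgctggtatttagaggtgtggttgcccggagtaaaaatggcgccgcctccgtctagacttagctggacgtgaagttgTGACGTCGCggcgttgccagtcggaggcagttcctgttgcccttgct
Psmd4: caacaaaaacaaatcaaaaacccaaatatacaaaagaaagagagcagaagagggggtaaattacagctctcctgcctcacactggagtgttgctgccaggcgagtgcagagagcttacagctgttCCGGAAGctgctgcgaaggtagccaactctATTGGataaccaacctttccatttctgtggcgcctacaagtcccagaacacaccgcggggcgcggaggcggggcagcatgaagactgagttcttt
Psmc5: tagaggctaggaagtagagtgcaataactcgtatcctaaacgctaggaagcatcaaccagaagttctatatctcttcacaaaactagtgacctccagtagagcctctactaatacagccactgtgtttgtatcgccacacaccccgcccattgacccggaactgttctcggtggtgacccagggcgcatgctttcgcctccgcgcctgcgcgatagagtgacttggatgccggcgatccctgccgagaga
They lie at chr14:54617996-54618245 (minus strand), chr3:95042615-95042864 (minus strand) and chr11:106255935-106256184 (plus strand). CCGGAAG, the core of sites for ETS-family factors, was in 8 of the 25 subunit promoters (32.0%) and in 7.05% of all 27025 promoters in the table. All 8 belonged to regulatory subunits and none to the 11 core subunits. With 7.05% of all promoters holding these letters, none among 11 is near the share of all promoters. TGACNNNGC, the core of the antioxidant response element to which Nfe2l1 and Nfe2l2 bind, was in 4 (16.0%), against 10.1% of all promoters, and CCAAT was in 10 (40.0%), against 34.5%. Other letters searched were GGAAG, which CCGGAAG contains, in 92.0% against 63.6%, TGANNNNGC, which contains TGACNNNGC, in 32.0% against 35.1%, and TGACTCA in none against 4.43%. The palindrome of nuclear respiratory factor sites was in 1 of the 25 (4.0%), against 0.781% of all promoters. These counts describe letters in a window, chosen after the expression values were seen.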

How the data were processed

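The RNA of sorted LT-HSCs was labelled in 1 colour, and the arrays were scanned and read with Agilent Feature Extraction 11.5.1.1 per the submitters' processing notes. Each deposited file holds the intensity of every spot, from which the authors' software had subtracted background. A deposited table of log2 values for 35795 probes was the same signal minus a constant per array (7.16 for wild-type and 6.84 for p38KO), with column medians of -0.79 and -0.79, and was used as an alternative.

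Control and outlier spots were left out, spots of a probe were averaged, and the 75th percentile of each array (7.16 and 6.85 on the log2 scale) was subtracted. Of 59305 non-control spots 40416 and 41057 were well above background, and none was saturated. The symbol of the array design was used where it is a current RefSeq symbol. Otherwise the probe's RefSeq accession or an unambiguous synonym gave the symbol, and 31735 of 55662 probes were named in this way. The genes taken by name kept the symbol of the array design. The brightest probe stood for a gene, and a gene was kept if either array marked that probe as well above background. A dim side was set no lower than the lowest signal well above background. No test was run, and the number of arrays limits the precision. Where leaving out a replicate would be usual, none was possible.

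Named were the catalytic subunits and their inducible counterparts, Psmd4 and Psmd14, the 3 largest decreases and increases of core and regulatory subunits, members at least 1.5-fold different or dim, the assembly chaperones, and the largest decrease and increase of each pathway list. Further subunits were named to fill each role. The members and lists were chosen with earlier results of these data known, and the sequence comparisons, the neighbours of Psmc5 the limit from the software's error, the marker sums without Itgam or Jchain and the background of genes with a mean level above 0 after the values were seen. Alternatives were quantile normalization, loess (span 0.3), the median of detected probes, normexp (offset 50, limma 3.58.1 in R 4.3.3), averaging of probes and other filters. Other steps used Python 3.11.15 with pandas 2.3.3 and were tested on simulated data.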

Additional observations from a re-analysis of the deposited data

How the results depend on the processing

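The directions of the medians over all, core and regulatory subunits and of Psmc5 held under every alternative run. The ATPase median turned from -0.06 to 0.01 with quantile normalization and with loess, and the median of all genes from -0.03 to 0.05 with normexp, while the medians of both rings, the other base subunits and the lid stayed below 0. The median of the 31 subunits ranged from -0.30 (normexp) to -0.18 (quantile, loess), that of the core subunits from -0.37 to -0.24, and that of the regulatory subunits from -0.21 to -0.04. Over these settings 24 subunits were always lower, Psmc2 and Psmc5 were always higher, and Psma2, Psmb4, Psmc6, Psmd3 and Psmd7 lay on either side of 0. The count at least 1.5-fold lower was 6, but 5 with quantile normalization (without Psmb7), 4 with loess (Psmb1, Psmd8, Psmd13 and Psmd14) and 9 when every gene taken by name was counted. Without Psmc5, left out after its value was seen, 0 subunits were at least 1.5-fold higher and the regulatory median was -0.15. Mapk14 ranged from -0.09 to 0.03. The share of all genes that were lower ranged from 44.7% (normexp) to 58.4% (no filter). The cause of these movements was not tested. No paired analysis was possible because each genotype has 1 array and the labels carry no replicate numbers.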
